A study of Mus musculus with 12 samples.

Results

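The genes described here are 7 genes of the MHC class II pathway, H2-Aa, H2-Ab1, H2-Eb1, Cd74, Ciita, H2-DMa and H2-DMb1, taken by symbol from the 32227 genes of a bulk RNA-seq count table. The table covers 12 libraries of basophil-lineage cells that were sorted from C57BL/6J wild-type mice, with 3 libraries in each of 4 groups. The first group was of CD34+ basophil progenitors (BaPs) of the bone marrow. Pre-basophils, called immature basophils in the labels, were CD34- CLEC12A-high CD9-low bone marrow cells. Mature basophils were CLEC12A-low CD9-high cells of the bone marrow (BM mature) or of the spleen (spleen mature). No treatment is named for any group. Each library came from a pool of several mice in a single experiment, so p-values measure the spread from pool to pool. The ages and sexes of the mice are not given in the sources used here. The question was whether the class II genes follow genes of B cells, such as Cd79a, or are present in basophil-lineage libraries in which those B cell genes are near 0.

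MHC class II molecules display peptides to CD4+ T cells and are made mainly by B cells, dendritic cells and macrophages. In the mouse, H2-Aa and H2-Ab1 encode the alpha and beta chains of I-A, and H2-Eb1 encodes the beta chain of I-E, whose alpha chain gene H2-Ea is inactive in the C57BL/6 strain. The product of Cd74 is the invariant chain, which fills the peptide groove during assembly, and H2-DMa and H2-DMb1 encode chains of H2-M, which exchanges the invariant chain remnant for peptide. CIITA is the coactivator on which class II transcription depends in B cells and dendritic cells, and it acts through factors bound to the X and Y boxes upstream of these genes. Whether basophils make class II or acquire it from other cells has been debated.

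Of the 7 genes, 5 lie in the H2 region of chromosome 17 in GENCODE annotation of GRCm38. H2-Aa is at chr17:34282744-34287823, H2-Ab1 at chr17:34257689-34269419, H2-Eb1 at chr17:34305867-34316674, H2-DMa at chr17:34119541-34139101 and H2-DMb1 at chr17:34153072-34160230. Ciita is at chr16:10480059-10528418, and the position of Cd74 is given with its values. All 7 are protein-coding, and their values are counts per gene of reads mapped to reference transcripts.

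Stretches upstream of the RefSeq starts of 3 genes are shown to describe where letters of the X and Y boxes lie. They come from the RefSeq promoter table on GRCm38.p6, read on the strand of the gene and ending before its RefSeq start. The stretch of H2-Aa is at chr17:34287857-34287915 on the minus strand. On the plus strand, those of H2-Eb1 and of H2-DMb2, the neighbouring copy of H2-DMb1, are at chr17:34305766-34305822 and chr17:34145116-34145173. Capitals mark the X box letters AACNGATGA and the Y box letters ATTGG.
H2-Aa: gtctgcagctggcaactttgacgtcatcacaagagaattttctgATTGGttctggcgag
H2-Eb1: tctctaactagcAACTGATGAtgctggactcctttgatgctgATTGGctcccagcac
H2-DMb2: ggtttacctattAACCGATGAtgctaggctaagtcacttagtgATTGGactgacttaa

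In H2-Eb1, H2-DMb1 and H2-DMb2 the X box letters were followed by the Y box letters after 21, 22 and 22 bases. For both H2-DMb1 and H2-DMb2 the pair lies downstream of the GENCODE start, though before the RefSeq start. The sequence of H2-DMb1 is not shown. The H2-Aa window held the Y box letters without the letters AACNGATGA. A search for these fixed letters does not show whether a promoter has an X box of another sequence. Searched on both strands, the X box letters occurred in 0.648% and the Y box letters in 37.4% of 32851 promoters of the same length. The X box letters followed within 30 bases by the Y box letters occurred in 7 promoters (0.0213%). These letters were chosen after the promoters had been looked at, and a match is a description of the sequence. The 2 promoter entries of H2-DMa and those of H2-Oa, H2-Ob and H2-Eb2 did not hold the pair.

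The libraries held between 3596110 and 8151030 counts. Levels are in CPM, the counts of a gene relative to the TMM-scaled total of its library, and a count of 0 allows up to 3 counts, or 0.290 to 0.955 CPM depending on the library. As a check of the labels, 8 basophil genes (Mcpt8, Prss34, Cd200r3, Fcer1a, Ms4a2, Gata2, Il4 and Itga2) together reached 5015 CPM or more in every library, with 24110 to 65100 CPM in BaPs, 59109 to 67643 in pre-basophils, and 10221 to 12878 and 5015 to 5729 CPM in the mature cells of marrow and spleen. BaP replicate 3 stood apart, with 1223 counts of the T cell kinase gene Lck against at most 49 in the other 11 libraries, and 1840 counts of the monocyte gene Ly6c2 against at most 71. Its summed B cell genes (86.1 CPM), dendritic cell genes (32.1 CPM), macrophage genes (238 CPM) and T cell genes (331 CPM) were each the highest of the 9 marrow libraries, and results that rest on it are given with and without it.

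By group means the class II genes fell into 2 patterns. H2-Aa, H2-Eb1, Cd74 and Ciita were high in spleen mature basophils and low in the 3 bone marrow groups, whereas H2-DMa and H2-DMb1 were highest in BaPs and pre-basophils. H2-Ab1 shared features of both, with its top level in spleen and a step down from BaPs and pre-basophils to BM mature basophils. This grouping was made after the values were seen.

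Per kilobase of exon, Cd74 was the most abundant of the 7 in spleen mature basophils, with a mean of 135 CPM per kb. H2-Ab1 followed with 22.8, H2-Eb1 with 18.6 and H2-Aa with 13.8 CPM per kb, and H2-DMb1 (4.37), H2-DMa (3.33) and Ciita (0.542) were lower. In pre-basophils the order was different, with H2-DMb1 at 9.93 and H2-Ab1 at 9.15 CPM per kb ahead of H2-DMa (4.71) and Cd74 (4.17), and H2-Eb1 at 0.928 and H2-Aa at 0.517 CPM per kb. The beta chain gene of I-A was thus above its alpha chain gene on this scale. The scale assumes that reads cover the whole exon length, which was not tested. Ciita stayed at 0.0648 to 0.130 CPM per kb in the 3 bone marrow groups.

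**Figure D1:**
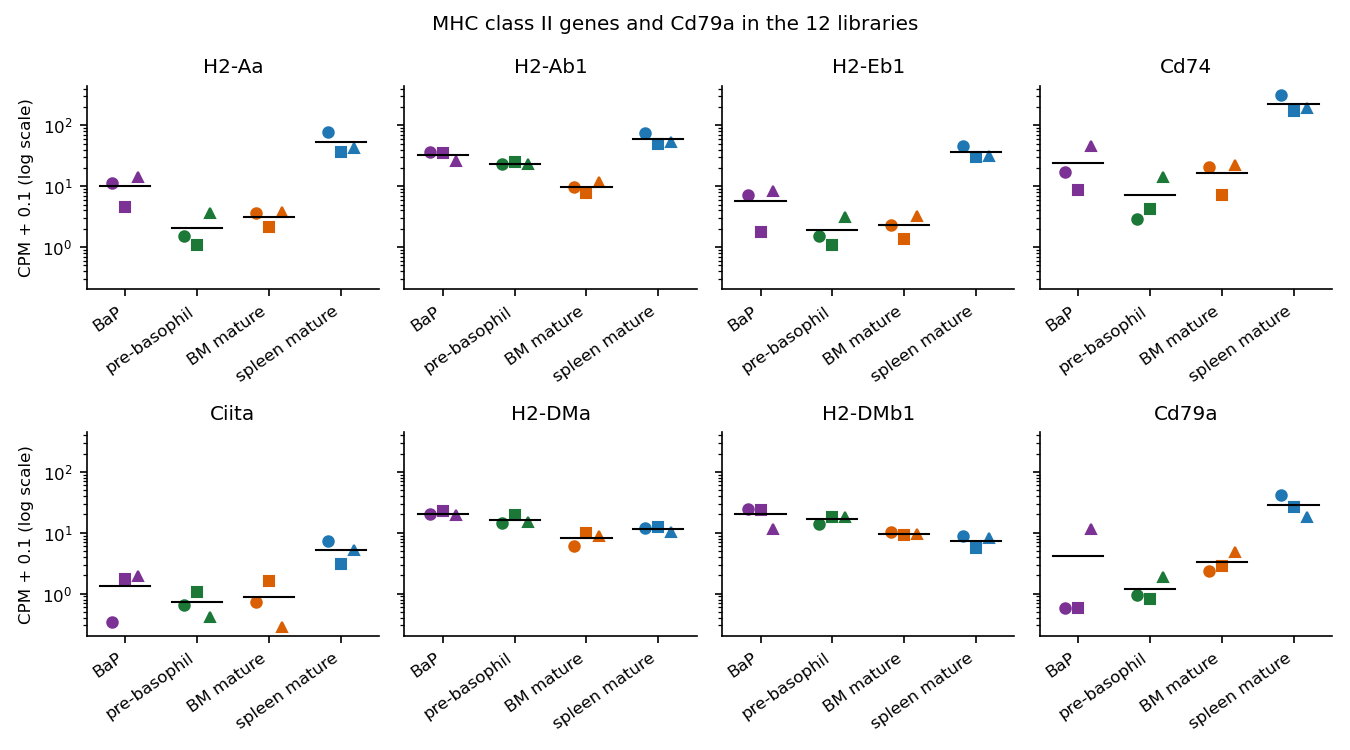
Each point is 1 library (circle, square and triangle for replicates 1, 2 and 3), and bars are group means. The vertical axis is CPM plus 0.1 on a log scale. H2-Aa, H2-Eb1, Cd74 and Ciita rise in spleen mature basophils as Cd79a does, and H2-DMa and H2-DMb1 have their highest means in BaPs.

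Spleen mature basophils were compared with BM mature basophils, cells of the same surface phenotype from different tissues. H2-Aa had 485, 223 and 323 counts in the 3 spleen libraries and 11, 8 and 20 in the BM mature libraries. In CPM this was 77.6, 36.8 and 42.9 against 3.50, 2.0 and 3.74, so that the lowest spleen library lay well above the highest marrow library. The fitted difference was 4.07 on the log2 scale (SE 0.46, adjusted p 0.000747 in edgeR's quasi-likelihood test), or 16.8-fold. In bulk samples, fewer cells of a type and less RNA per cell cannot be told apart.

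Cd74 lies outside the H2 region, at chr18:60803848-60812652. It had 1955, 1054 and 1444 counts in spleen and 64, 28 and 120 in BM mature libraries. Its levels were 313, 174 and 192 CPM against 20.4, 7.01 and 22.5 CPM. H2-Eb1 had 289, 186 and 238 counts against 7, 5 and 17. Neither gene overlapped between the tissues, and the log2 differences were 3.76 for Cd74 (SE 0.59, adjusted p 0.00398) and 3.97 for H2-Eb1 (SE 0.48, adjusted p 0.00108). For Ciita, 46, 18 and 39 counts in spleen stood against 2, 6 and 1 in marrow. Its log2 difference was 2.78 (SE 0.64, adjusted p 0.0219). Ciita passed the filter on low counts through the spleen libraries, with only 1 library of another group, a BaP library, above the filter level. The call was lost when BM mature replicate 1 or 3 or spleen mature replicate 1 or 3 was left out (adjusted p 0.0642 to 0.0953).

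H2-Ab1 rose from 9.55, 7.51 and 11.8 CPM in BM mature to 74.4, 48.5 and 53.0 CPM in spleen mature libraries. The rise of 2.59 on the log2 scale (SE 0.21, adjusted p 9.84e-05), or 6.02-fold, compared with 16.8-fold for H2-Aa, and H2-Ab1 had the higher level of the pair in marrow. H2-DMa stood at 11.7, 12.5 and 10.2 CPM in spleen against 6.05, 9.77 and 8.61 CPM in marrow (log2 0.48, SE 0.20, adjusted p 0.163). For H2-DMb1 the values were 8.64, 5.45 and 7.97 CPM against 10.2, 9.26 and 9.36 CPM (log2 -0.38, SE 0.29, adjusted p 0.451). Neither H2-M gene passed the test. Leaving aside Ciita, which was tested because of its spleen counts, the groups did not overlap for any of the other 6 genes. The same held for 33.7% of all tested genes. Of the 6 genes, 4 were called higher in spleen and 0 lower, where 7.83% of tested genes were called, 3.16% higher and 4.67% lower.

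Genes of B cells moved with this difference. Of 12 B cell genes (among them Cd79a, Cd79b, Ms4a1, Pax5, Ebf1 and Blk), 10 were called higher in spleen, though several of them, such as Pax5 and Blk, passed the filter on low counts through the spleen libraries. Cd79a, which encodes a signalling chain of the B cell receptor, had 261, 159 and 137 counts in spleen and 7, 11 and 25 in BM mature libraries (log2 3.09, SE 0.75, adjusted p 0.0258). The summed level of the 12 genes was 135 to 221 CPM in spleen and 35 to 39.3 CPM in BM mature libraries. Of 10 dendritic cell genes the summed level was 22.0 to 25.3 CPM against 10.02 to 13.0 CPM, with 0 of the 3 tested genes called in edgeR (1 at an unadjusted p under 0.05). That of 12 monocyte and macrophage genes was 38.3 to 40.5 CPM against 26.0 to 38.6 CPM, with 0 of 9 tested genes called (3 at an unadjusted p under 0.05) and Marco and Fcgr1 at 0 in all mature libraries. The log2 differences of the 9 tested genes ran from -2.98 to 1.30, with a median of -0.32.

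When the B cell level was added to the fit, only H2-Ab1 kept its call in spleen against BM mature basophils (log2 2.68, adjusted p 0.0085). H2-Aa (1.68, adjusted p 0.256), H2-Eb1 (1.96, adjusted p 0.261), Cd74 (0.27, adjusted p 0.920) and Ciita (0.89, adjusted p 0.830) did not pass in that fit. The number of genes called fell from 1181 to 383, and the slope on the B cell level that this fit uses rests on BaP replicate 3, as described below for the slopes.

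**Figure D2:**
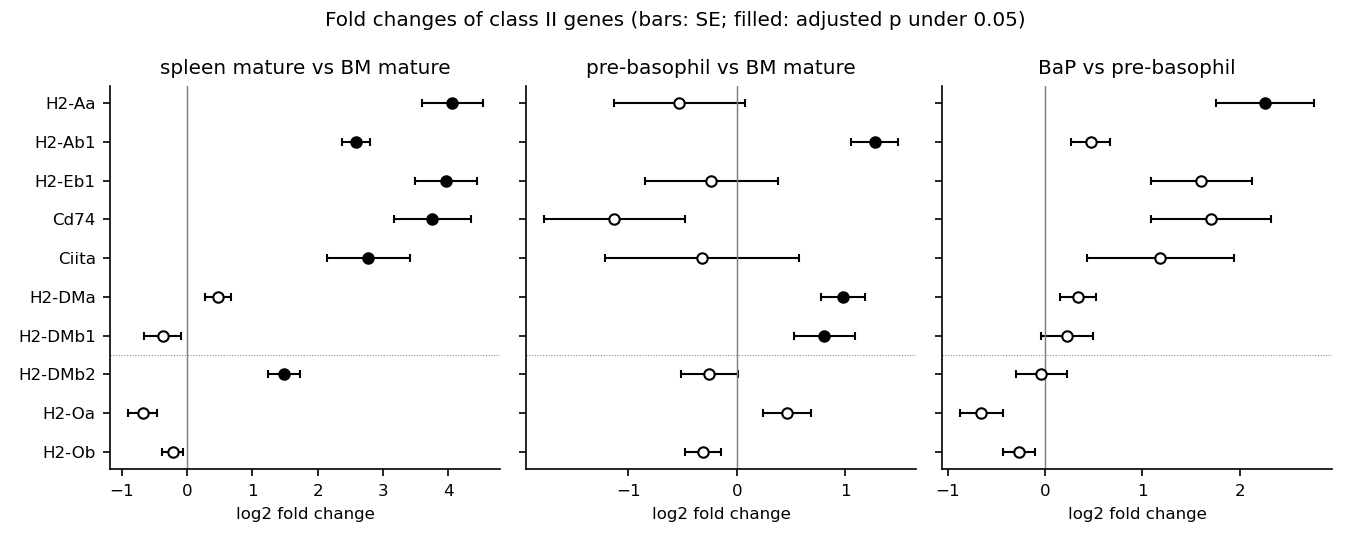
Log2 fold changes in 3 comparisons, with bars for the SE and filled points for an adjusted p under 0.05 in edgeR. The genes above the dotted line are the 7 class II genes, and those below it are H2-DMb2, H2-Oa and H2-Ob. H2-Aa, H2-Eb1, Cd74 and Ciita are called in spleen against BM mature and not in pre-basophils against BM mature, where H2-Ab1, H2-DMa and H2-DMb1 are called.

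Pre-basophils were next compared with BM mature basophils, a step of maturation within the marrow. H2-Ab1 had 83, 101 and 142 counts in pre-basophils and 30, 30 and 63 in BM mature basophils. This corresponded to 23.2, 24.6 and 22.7 CPM against 9.55, 7.51 and 11.8 CPM. The pre-basophil libraries lay close together (23.5 ± 0.974, SD, n = 3) and all above the mature libraries. The log2 difference was 1.27 (SE 0.22, adjusted p 0.000802 in edgeR), or 2.41-fold.

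H2-DMa followed the same direction, with 14.3, 19.2 and 15.2 CPM against 6.05, 9.77 and 8.61 CPM (log2 0.98, SE 0.20, adjusted p 0.00279). H2-DMb1 stood at 13.7, 18.0 and 18.4 CPM against 10.2, 9.26 and 9.36 CPM (log2 0.81, SE 0.28, adjusted p 0.0469). The groups did not overlap for these 3 genes, as for 47% of all tested genes. The call of H2-DMb1 was lost on leaving out any single pre-basophil or BM mature library, or spleen mature replicate 1 or 3 (adjusted p 0.0545 to 0.133), and in DESeq2 (0.0567), limma-voom (0.0887) and with another scaling (0.0589). Without BaP replicate 3 its adjusted p was 0.00356.

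The other class II genes did not pass in this comparison and overlapped between the groups. H2-Aa had 5, 4 and 22 counts in pre-basophils against 11, 8 and 20 (log2 -0.53, SE 0.61, adjusted p 0.558). Cd74 had 10, 17 and 88 counts against 64, 28 and 120 (log2 -1.13, SE 0.65, adjusted p 0.222), and for H2-Eb1 5, 4 and 19 counts stood against 7, 5 and 17 (log2 -0.23, SE 0.61, adjusted p 0.815). Ciita had at most 4 counts in a pre-basophil library. Thus 3 of the 7 genes were called, all higher in pre-basophils, against 27.3% of all tested genes called, 16.3% higher and 11% lower. The median log2 difference was -0.23 over the 7 and 0.00 over all genes.

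The 3 genes that were higher in pre-basophils did not go with Cd79a. Cd79a had 3, 3 and 11 counts in pre-basophils, fewer than the 7, 11 and 25 in BM mature basophils (log2 -1.47, SE 1.01, adjusted p 0.311). Pax5, the factor that maintains B cell identity, was at 0, 0 and 4 counts. Of the 12 B cell genes, 1 was called higher in pre-basophils, and this was Cd79b (94, 104 and 162 counts against 29, 67 and 59). The summed dendritic cell genes were at 8.66 to 10.2 CPM in pre-basophils and 10.02 to 13.0 CPM in BM mature basophils, and the macrophage genes at 16.5 to 28.1 CPM against 26.0 to 38.6 CPM. Neutrophil genes did move with this comparison, with all 7 listed genes called higher in pre-basophils and a summed level of 906 to 2119 CPM against 79.7 to 114 CPM. Their part in the class II values was not tested.

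BaPs were compared with pre-basophils, which lack CD34. H2-Aa had 47, 19 and 148 counts in BaPs and 5, 4 and 22 in pre-basophils, or 11.2, 4.48 and 14.3 CPM against 1.40, 0.974 and 3.52 CPM. All BaP libraries were above all pre-basophil libraries, as was the case for H2-Ab1 and H2-DMa, and 25.1% of all tested genes did not overlap. The difference passed the test (log2 2.26, SE 0.51, adjusted p 0.0178 in edgeR). Without BaP replicate 3 the log2 difference was 1.84 (adjusted p 0.0318). Leaving out pre-basophil replicate 1 or 2 ended the call (adjusted p 0.0738 and 0.0882), as did limma-voom (0.0766).

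For H2-Eb1, 30, 7 and 85 counts in BaPs gave a log2 difference of 1.61 (SE 0.52, adjusted p 0.0778), and for Cd74, 71, 36 and 470 counts gave 1.71 (SE 0.62, adjusted p 0.110). Both overlapped with pre-basophils. H2-Ab1 was at 37.0, 35.4 and 26.0 CPM in BaPs, above each pre-basophil library (log2 0.47, SE 0.20, adjusted p 0.169), and without BaP replicate 3 it passed (0.63, adjusted p 0.0374). H2-DMa was at 20.1, 22.4 and 19.4 CPM (log2 0.34, adjusted p 0.305). H2-DMb1 was at 24.6, 23.8 and 11.6 CPM (log2 0.23, adjusted p 0.673), with the low value in BaP replicate 3. Ciita had 1, 7 and 19 counts in BaPs (log2 1.18, adjusted p 0.388). With the replicate number as a block in edgeR, H2-Eb1 (1.56, adjusted p 0.0364) and Cd74 (1.66, adjusted p 0.0426) passed beside H2-Aa (2.24, adjusted p 0.0033). Without BaP replicate 3, in the fit without the block, the log2 differences were 1.15 for H2-Eb1 (adjusted p 0.194) and 0.70 for Cd74 (adjusted p 0.440). Hence 1 of the 7 genes was called without the block and 3 with it, all higher in BaPs. Without the block, this stood against 7.08% of all tested genes, 2.79% higher and 4.29% lower. The median log2 difference was 1.18 over the 7 and 0.02 over all genes.

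Macrophage genes moved with H2-Aa in BaPs. C1qa, C1qb and C1qc, which encode the chains of complement C1q, were the 3 called of 9 tested macrophage genes, and they passed the filter through the BaP libraries. C1qa had 31, 12 and 70 counts in BaPs against 2, 3 and 3 in pre-basophils. C1qb had 24, 10 and 93 against 3, 3 and 4. BaP replicate 2 was the lowest of the 3 BaP libraries for the C1q genes, H2-Aa, H2-Eb1 and Cd74 alike. The 12 macrophage genes summed to 27.3 to 238 CPM in BaPs and 16.5 to 28.1 CPM in pre-basophils, with Marco at 0 in all libraries but BaP replicate 3 (2 counts) and Fcgr1 at 3 counts or fewer. T cell genes moved too, with 2 of 5 tested genes called higher in BaPs (5 at an unadjusted p under 0.05) and a summed level of 13.2 to 331 CPM against 13.3 to 18.5 CPM. Of 7 neutrophil genes 2 were called higher, with sums of 1894 to 2280 CPM against 906 to 2119 CPM, and of the 8 basophil genes 3 were called lower. The part of these cell type genes in the H2-Aa difference was not tested.

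B cell genes were near 0 in 2 of the BaP libraries, apart from Cd79b and Ebf1, and 0 of the 12 were called between BaPs and pre-basophils in edgeR (2 at an unadjusted p under 0.05). Cd79a had 2, 2 and 117 counts in BaP replicates 1 to 3, and Pax5 had 0, 1 and 92. A count of 0 allows up to 0.717 CPM in replicate 1 and 0.707 CPM in replicate 2. In these same libraries H2-Ab1 had 155 and 150 counts, H2-DMa 84 and 95, and H2-DMb1 103 and 101. These H2-Ab1 levels were the highest of the 9 marrow libraries, while Cd79a was the lowest.

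The relation to B cell genes was then tested within groups. For every gene a slope was fitted on the log2 summed level of the 12 B cell genes beside a coefficient for each group, so that a slope of 1 is a change in proportion and 0 is none. Cd74 had a slope of 1.63 (SE 0.33, adjusted p 0.00910 in edgeR) and H2-Aa of 1.09 (SE 0.28, adjusted p 0.0305). H2-Eb1 (0.94, SE 0.34, adjusted p 0.113) and Ciita (0.87, SE 0.55, adjusted p 0.398) had slopes of similar size that did not pass. The slopes of H2-Ab1 (-0.04, SE 0.20, adjusted p 0.940), H2-DMa (-0.10, SE 0.20, adjusted p 0.833) and H2-DMb1 (-0.54, SE 0.26, adjusted p 0.251) lay near or below 0. Thus 2 of 7 were called above 0 and 0 below, against 6.17% of all genes called on either side, 3.58% above and 2.59% below 0.

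The size of these slopes depended on the B cell measure. With Cd79a alone, the slope of Cd74 was 0.57 (adjusted p 0.00287 in edgeR), that of H2-Aa was 0.33 and did not pass (adjusted p 0.0632), and that of H2-DMb1 was -0.24 and passed below 0 (adjusted p 0.0497). The list without Cd79b and Ebf1, a choice made after the data were seen, gave 0.68 for Cd74 (adjusted p 0.000641) and 0.39 for H2-Aa (adjusted p 0.0398). With the replicate block, Cd74 kept its call (1.19, adjusted p 0.0288) and H2-Aa did not (0.77, adjusted p 0.0828).

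These slopes depended on BaP replicate 3, whose B cell level was 86.1 CPM against 39.7 and 37.2 CPM in the other BaP libraries. Without it, 1 gene was called among all those tested in edgeR and 0 of the 7 (4 at an unadjusted p under 0.05), with slopes of 1.61 for Cd74 and 1.68 for H2-Aa (both adjusted p 0.978) and 0.75 for H2-Ab1. Leaving out BaP replicate 2 also ended both calls (adjusted p 0.0758 for Cd74 and 0.151 for H2-Aa, with 3 of the 7 at an unadjusted p under 0.05). The call of H2-Aa was also lost without spleen mature replicate 1 or 2 (adjusted p 0.0671 and 0.0567).

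Genes of dendritic cells and macrophages were raised in BaP replicate 3 as well. Cd74 had slopes of 0.83 on dendritic cell genes (adjusted p 0.0062) and 0.76 on macrophage genes (adjusted p 0.0014). On dendritic cell genes 14.6% of all genes were called, 7.96% above and 6.68% below 0, and on macrophage genes 15.5%, 8.53% above and 6.99% below 0. Of the 7 genes, 1 was called above and 1 below 0 on each. H2-Aa did not pass on dendritic cell genes (0.42, adjusted p 0.143) or macrophage genes (0.37, adjusted p 0.109), and H2-DMb1 had slopes below 0 on both (-0.40, adjusted p 0.0226, and -0.31, adjusted p 0.0325). With the replicate block, H2-Aa passed on macrophage genes (0.40, adjusted p 0.0481). Without BaP replicate 3, the slopes of Cd74 were 4.91 on dendritic cell genes (adjusted p 0.857) and 3.10 on macrophage genes (adjusted p 0.00345), and those of H2-DMb1 turned to 1.01 and 0.36 (adjusted p 1 and 0.964 in edgeR). The B cell, dendritic cell and macrophage levels cannot be told apart in this library.

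**Figure D3:**
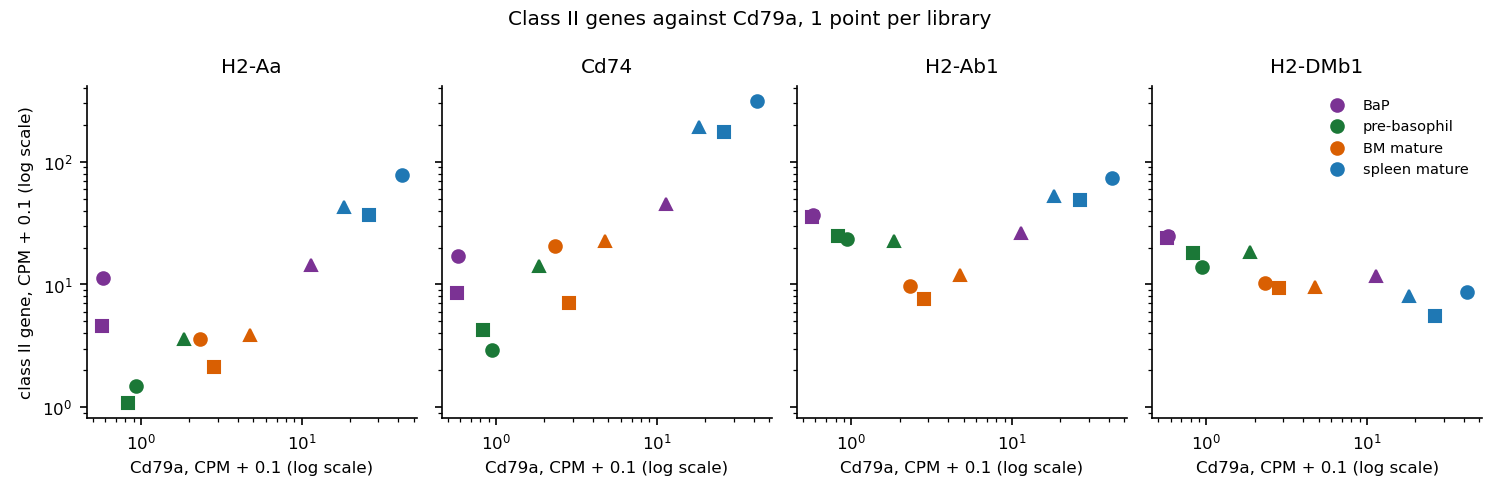
Levels of 4 class II genes against Cd79a, 1 point per library (circle, square and triangle for replicates 1, 2 and 3), in CPM plus 0.1 on log axes. H2-Aa and Cd74 are high in the libraries with much Cd79a, apart from BaP replicates 1 and 2 for H2-Aa. H2-DMb1 is highest where Cd79a is lowest, and H2-Ab1 is high at both ends.

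Ratios of counts within a library do not depend on library scaling, and they set the genes side by side. H2-Aa per Cd79a was 1.86, 1.40 and 2.36 in spleen mature, 1.57, 0.727 and 0.800 in BM mature and 1.67, 1.33 and 2.0 in pre-basophil libraries. It was 23.5, 9.50 and 1.26 in BaPs. The ratio therefore lay within 0.727 to 2.36 in all libraries but BaP replicates 1 and 2, where Cd79a had only 2 counts each. Cd79a counts were also few in pre-basophil replicates 1 and 2. Per count of the B cell list without Cd79b and Ebf1, a choice made after the data were seen, H2-Aa was 2.14 and 1.06 in those BaP libraries. In the other libraries it was 0.121 to 0.463.

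H2-Ab1 per Cd79a was 1.78, 1.85 and 2.91 in spleen mature and 4.29, 2.73 and 2.52 in BM mature libraries. It reached 27.7, 33.7 and 12.9 in pre-basophils and 77.5, 75.0 and 2.30 in BaPs. BaP replicate 3, the BaP library with B cell genes, was close to the spleen libraries in this ratio. For H2-DMb1 the ratio was 0.207, 0.208 and 0.438 in spleen, 10.5 to 24.7 in pre-basophils and 51.5, 50.5 and 1.03 in BaPs.

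The summed counts of H2-Aa, H2-Ab1, H2-Eb1 and Cd74 per count of the 12 B cell genes were 2.31, 2.15 and 2.21 in spleen and 1.02, 0.490 and 1.05 in BM mature libraries. This log2 difference of 1.47 had an exact two-sided permutation p of 0.1, the smallest that 3 against 3 libraries allow (adjusted p 0.133 over 12 such tests). Pre-basophils and BM mature basophils differed by 0.00 in this ratio (exact permutation p 1). Within the B cell list, Cd79b and Ebf1 had 21 or more counts in the marrow libraries in which Cd79a had 3 or fewer. With these 2 genes removed, a choice made after the data were seen, the ratio was 3.003 to 3.23 in spleen, 1.51 to 2.15 in BM mature and 3.52 to 3.82 in pre-basophil libraries. Pre-basophils then exceeded BM mature basophils by 0.99 on the log2 scale, and with Cd79a alone by 1.76 (exact permutation p 0.1 each). The permutations treated the libraries as unpaired, although replicate numbers were taken to pair the marrow libraries.

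Within the class II genes, the ratio of the I-A chain genes was lowest in spleen and highest by mean in pre-basophils. H2-Ab1 per H2-Aa was 0.959, 1.32 and 1.24 in spleen mature and 2.73, 3.75 and 3.15 in BM mature libraries. It was 16.6, 25.3 and 6.45 in pre-basophils and 3.3, 7.89 and 1.82 in BaPs. No spleen library overlapped with any other group, and the log2 differences from BM mature were -1.46 for spleen mature and 2.13 for pre-basophils (exact two-sided permutation p 0.1 each, the smallest possible). H2-DMa per H2-Aa was 0.151 to 0.341 in spleen and 1.35 to 19.8 in the 9 marrow libraries. H2-Eb1 per H2-Aa, by contrast, stayed within 0.368 to 1.0 in all 12 libraries.

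**Figure D4:**
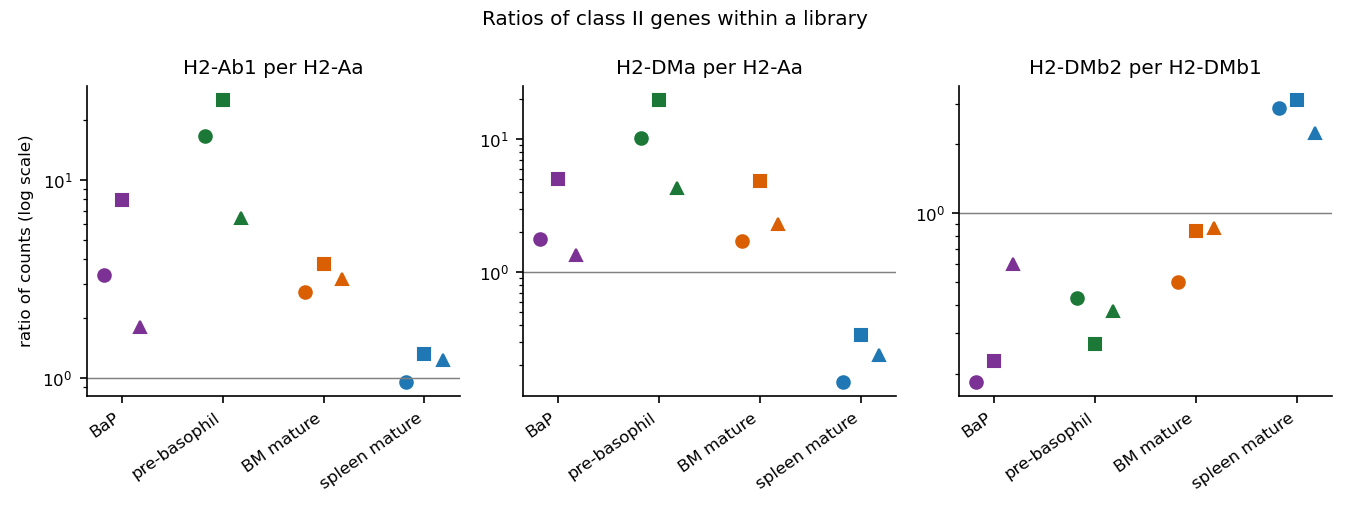
Ratios of counts within each library on a log axis, with 1 point per library (circle, square and triangle for replicates 1, 2 and 3) and a line at 1. H2-Ab1 per H2-Aa and H2-DMa per H2-Aa are lowest in the 3 spleen libraries, and H2-DMb2 per H2-DMb1 is highest there.

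H2-DMb2 encodes a further beta chain of H2-M and lies next to H2-DMb1. It had 155, 103 and 135 counts in spleen mature, 16, 31 and 43 in BM mature, 21, 20 and 43 in pre-basophil and 19, 23 and 72 in BaP libraries. Unlike H2-DMb1, it was higher in spleen than in BM mature basophils (log2 1.49, SE 0.25, adjusted p 0.00506), and it did not pass in the other comparisons (adjusted p 0.521 and 0.962). H2-DMb2 per H2-DMb1 was 2.87, 3.12 and 2.25 in spleen and 0.184 to 0.860 in the marrow libraries. The pair shared 22.7% of the 50-base stretches of H2-DMb1 transcripts, and how reads matching both were assigned is not given, so their levels are less certain than those of H2-Ab1, H2-Eb1 and Cd74, which shared none.

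Some gene models overlap others in the annotation, and without strand information reads from the shared exon sequence cannot be told apart. The span of H2-DMa overlaps Brd2 by 3094 bases, CR974462.4 by 1491 and Gm20493 by 637 on the opposite strand, and CR974462.3 by 591 on the same strand. That of Ciita overlaps Dexi by 25888 bases, and that of H2-Eb1 the antisense gene Gm20513 by 2204. The whole span of H2-Oa, 2895 bases, lies within that of the antisense gene BC051537. H2-DMa shared 8.43% of its 50-base stretches with the opposite strand of Brd2. Brd2 was at 215 ± 19.2 CPM (SD, n = 3) among BaPs, 214 ± 5.11 among pre-basophils, and 191 ± 21.8 and 217 ± 14.4 CPM among the mature cells of marrow and spleen. It did not pass in pre-basophils against BM mature basophils (log2 0.16, adjusted p 0.327), where H2-DMa did. Brd2 was far more abundant than H2-DMa, so its missing call does not show whether shared reads moved H2-DMa. That was not tested. Ciita shared 1.46% with the opposite strand of Dexi.

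The remaining chains were described for comparison. H2-Oa and H2-Ob encode H2-O, which inhibits H2-M. Because the span of H2-Oa lies within that of the antisense gene BC051537, the H2-Oa values may include reads of that gene, which was not tested. H2-Oa was at 162 to 164 CPM in pre-basophils, 116 to 120 CPM in BM mature and 70.6 to 76.5 CPM in spleen mature libraries, with log2 differences of 0.46 (adjusted p 0.147) and -0.68 (adjusted p 0.0813) from BM mature basophils. Without BaP replicate 3 both passed (0.46, adjusted p 0.00038, and -0.68, adjusted p 4.97e-05 in edgeR), as did H2-Oa in BaPs against pre-basophils (-0.33, adjusted p 0.0316, where all libraries gave -0.65, adjusted p 0.0931). H2-Ob was at 54.3 to 76.1 CPM in all mature libraries and 55.6 to 59.2 CPM in pre-basophils, and did not pass in the 3 comparisons (adjusted p 0.190 to 0.433), whereas without BaP replicate 3 it was called lower in pre-basophils than in BM mature basophils (-0.31, adjusted p 0.0428). Per kilobase, H2-Oa exceeded H2-Aa in all 4 groups, with means of 52.4 to 116 CPM per kb. Its slope on the B cell level was -0.75 (SE 0.15, adjusted p 0.00955), with adjusted p 0.0635 without BaP replicate 2 and a slope of -0.06 without BaP replicate 3. H2-Eb2 had 14, 14 and 17 counts in spleen and 2, 4 and 3 in BM mature libraries (log2 1.62, SE 0.39, adjusted p 0.0258). The spleen libraries were just over the filter on low counts for H2-Eb2 and the BM mature libraries under it. The gene was therefore tested because of libraries in which it was high. H2-Ea was at 0 in 11 libraries and at 1 count in a pre-basophil library.

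Other genes of the pathway were taken from a list. Of 38 listed regulators, other chains, processing genes, co-stimulatory molecules and receptors, 35 were tested, and those called are named after their values were seen. In spleen against BM mature basophils 5 were called higher and 0 lower (Irf4, H2-Eb2, H2-DMb2, Ctsd and Cd83). Of all tested genes, 7.83% were called there, 3.16% higher and 4.67% lower. H2-Eb2 was over the filter on low counts in the spleen libraries and under it in the BM mature libraries, so its call depends on that filter. In pre-basophils against BM mature basophils 5 were higher (Nfya, Ctsb, Ctsh, Ifi30 and Lamp1) and 5 lower (Irf1, Spi1, Ctsd, Cd86 and Ifngr2). The share called was close to that of all tested genes, 27.3% (16.3% higher and 11% lower). In BaPs against pre-basophils 2 were higher (Irf8 and Ctss) and 3 lower (Rfxank, Spi1 and Ctsd), where 7.08% of all tested genes were called (2.79% higher and 4.29% lower). Irf8 had 663 counts in BaP replicate 3 against 8 and 5 in the other BaP libraries. The RFX subunit genes Rfx5 and Rfxap did not pass in these comparisons.

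Ctsd and Spi1 were called in more than 1 comparison. Ctsd, which encodes the lysosomal protease cathepsin D, increased along the series, with means of 353 ± 14.0 CPM (SD, n = 3) in BaPs, 548 ± 33.2 CPM in pre-basophils, 998 ± 80.5 CPM in the mature cells of the marrow and 1436 ± 188 CPM in those of the spleen. Each step was called, with log2 differences of -0.63 for BaPs against pre-basophils (adjusted p 0.00687), -0.86 for pre-basophils against BM mature (adjusted p 0.000136) and 0.53 for spleen against BM mature (adjusted p 0.0190). Spi1, which encodes the myeloid factor PU.1, was at 137 ± 36.1 CPM (SD, n = 3) in BaPs, 209 ± 17.3 CPM in pre-basophils, 309 ± 37.3 CPM in the mature cells of the marrow and 300.1 ± 5.85 CPM in those of the spleen. It was lower in BaPs than in pre-basophils (log2 -0.61, adjusted p 0.0425) and lower in pre-basophils than in BM mature basophils (log2 -0.56, adjusted p 0.0217). Over the marrow groups the order of their means was the reverse of that of H2-DMa and H2-DMb1.

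Across the 4 groups together, the 6 genes other than Ciita differed in edgeR's F test, as did 57.8% of all tested genes. The genes most like the mean profile of H2-Aa, H2-Ab1, H2-Eb1 and Cd74 over the 12 libraries, by Pearson's r of log2 CPM among 10736 genes with at least 5 CPM on average, were Irak1 (0.917), Vmn2r124 (0.915), Gcn1 (0.914), Gm6548 (0.910), Hps5 (0.903), Tada2b (0.898), Myc (0.898), Slc45a4 (0.896), Gm6789 (0.887) and Cebpz (0.887). Each of these is a description over libraries that share groups and scaling. With 0.5 CPM added before the log, Cd79a had r 0.814 and Cd79b 0.467, whereas H2-DMa had 0.01 and H2-DMb1 -0.46.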

How the data were processed

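Sorted basophil-lineage cells were lysed by the authors, polyadenylated RNA was captured on beads, and complementary DNA was amplified by the TAS-Seq workflow, fragmented and sequenced. The authors deposited raw counts per gene, without normalization, after trimming with Cutadapt 3.4 and mapping with Bowtie2 2.4.2 to reference transcripts. The methods name GRCm38, and the submitters' processing notes name GRCm39 and mm39. The table holds symbols without coordinates, and coordinates here are from GENCODE on GRCm38. Strand use and the handling of reads with several matches are not given in the sources used here. Molecular identifiers are not mentioned, so intervals and floors cover counting error only.

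Groups were taken from the sample titles. Genes were filtered with filterByExpr, scaled by TMM and fitted in edgeR 4.0.16 (R 4.3.3) as 1 quasi-likelihood model of all 12 libraries with a coefficient per group, and 15083 genes were tested. A gene was called at an adjusted p (Benjamini-Hochberg, over all genes tested) under 0.05. The SE is the absolute log2 difference divided by the square root of F. Slopes used the log2 summed CPM of a gene list plus 0.5 as a covariate. Scripts were tested on simulated data. Replicates of a group differed beyond sampling noise (chi-square per degree of freedom 4.16 to 35.0), so each library was counted as 1 replicate. Replicate numbers come from the titles, which do not say what they mark. Deviations from the group means correlated at 0.125 to 0.262 in all 9 same-number pairs of the 3 marrow groups, at 0.000366 to 0.0899 in the 9 pairs with spleen and at 0.0758 or less in 36 pairs of different number, so the numbers were taken to pair the marrow libraries and not the spleen libraries. The main model has no block, and the block model covers all 12 libraries. The permutation tests of ratios did not use the pairing. Named genes were the 7 members, listed chains and markers, pathway genes called in 2 or more comparisons, and the 10 genes of most similar profile; genes of 5 or fewer called were also named. Some listed genes are not reported here. The members and lists were chosen with earlier results of these data known. Alternatives were other scalings, no filter, DESeq2 1.42.0, limma-voom (limma 3.58.1), a replicate block, other B cell covariates and leaving out each library.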

Additional observations from a re-analysis of the deposited data

How the results depend on the processing

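Precision was limited by low counts of H2-Aa, H2-Eb1, Ciita and Cd79a in the marrow and by 3 libraries per group. Library size alone as the scaling moved the median log2 difference of all genes from 0.01, 0.00 and 0.02 to 0.14, 0.22 and 0.23 in spleen mature against BM mature, pre-basophil against BM mature and BaP against pre-basophil, and the share of calls that were higher from 40.4% to 60.6%, from 59.8% to 82.5% and from 39.4% to 79.6%.

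In BaPs against pre-basophils, 1068 genes and 1 class II gene were called. With library size alone these were 1620 and 3, without the filter 2091 and 3, and leaving out single libraries gave 382 (without pre-basophil replicate 3) to 1831 (without BaP replicate 3) and 0 to 3, with 0 without pre-basophil replicate 1 or 2 (2 and 3 of the 7 at an unadjusted p under 0.05). DESeq2 called 2 and limma-voom 0 of the 7, where limma-voom called 1125 genes in all and 3 of the 7 had an unadjusted p under 0.05. In spleen mature against BM mature 1181 genes were called, against 1796 without the filter, 383 (1 of the 7) with the B cell level as a covariate, and 241 (without spleen mature replicate 3) to 2653 (without BaP replicate 3) without single libraries, with 4 to 5 of the 7 called. Each BM mature and spleen mature library moved this count by over 1.5 times. For the B cell slope 931 genes were called, against 1918 without the filter, 1809 with Cd79a alone, 1950 without Cd79b and Ebf1 (added after seeing the data) and 1 (without BaP replicate 3) to 2445 (without spleen mature replicate 1) without single libraries, with 0 to 3 of the 7. Of the dendritic cell slopes, 2 of the 7 passed, against 1 with library size alone, 4 without the filter and 0 to 3 without single libraries (0 to 2500 genes, 0 without BaP replicate 3, where 4 of the 7 had an unadjusted p under 0.05). The macrophage slopes gave 2 of the 7, 4 without the filter and 1 to 3 without single libraries (49 to 2507 genes, 49 without BaP replicate 3). The cause was not tested.

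With the replicate block, 3 of the 7 were called in BaPs against pre-basophils (H2-Aa, H2-Eb1 and Cd74) and 1 of the 7 (Cd74) on the B cell slope, where the H2-DMa slope turned to 0.10 (macrophage slope 0.0035). H2-Aa passed on the macrophage slope with the block. It changed no other call of the 7 genes in the 3 comparisons and 3 slopes.

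Some directions turned. H2-DMb2 in BaPs against pre-basophils was 0.19 with library size alone and -0.25 to 0.11 without single libraries. With the B cell level, H2-DMb1, H2-Oa and H2-Ob in spleen against BM mature were 0.78, 0.92 and 0.54. In pre-basophils against BM mature, H2-Eb1 ranged from -0.95 to 0.19 and Ciita from -0.90 to 0.67 without single libraries. With library size alone, slopes were 0.075 (H2-Ab1) and 0.10 (H2-DMa) on B cells, 0.037 (H2-DMa) on dendritic cells and 0.022 (H2-DMa) on macrophages. Without single libraries, B cell slopes ranged from -0.37 to 0.75 (H2-Ab1), -0.80 to 0.56 (H2-DMb1) and -0.53 to 0.12 (H2-Ob), dendritic cell slopes from -0.18 to 1.36, -0.43 to 1.01 and -0.30 to 0.26, and macrophage slopes from -0.15 to 0.30 (H2-Ab1), -2.62 to 0.67 (Ciita), -0.35 to 0.36 (H2-DMb1) and -0.40 to 0.050 (H2-Oa). The ratio of class II to B cell counts in pre-basophils against BM mature, 0.00 in log2, was 1.76 with Cd79a alone, 0.72 without Cd74, 0.99 without Cd79b and Ebf1, and -0.36 to 0.19 without single libraries.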
